A study of Homo sapiens with 6 samples.

Results

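The 7 genes described here encode the FOS family (FOS, FOSB, FOSL1 and FOSL2) and the JUN family (JUN, JUNB and JUND) of the transcription factor AP-1. They are 7 of the 58735 genes in the deposited table. The family was chosen by a measured value, since FOS was among the largest rises in siC1QBP against siNC libraries; the other members were added by family. Differences of these 7 genes between siC1QBP and siNC libraries are therefore given as a description, with fold changes, errors and intervals. Where such a gene is said to be called, this says only that it passed the threshold used for all genes, and no p-value is given for it. RNA was sequenced from HUCCT1, an established human cholangiocarcinoma cell line derived from bile duct tumour cells. There were 3 libraries from cells given siC1QBP, a small interfering RNA against C1QBP, and 3 from cells given siNC, the control siRNA. The title of the study concerns C1QBP, PAICS, FAK and c-Myc in the proliferation of these tumour cells. All 6 libraries came from this line, and the labels name no other allele or agent and give no dose or time of siRNA treatment.

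AP-1 is a dimer of basic leucine zipper (bZIP) proteins that binds short DNA sites in enhancers and promoters. JUN proteins pair with each other or with FOS proteins, whereas FOS proteins need a JUN partner to bind DNA. FOS, FOSB, JUN and JUNB are immediate early genes, switched on within minutes of a growth factor, stress or cytokine signal through MAP kinases; FOSL1 and FOSL2 come later and are kept up by sustained signalling in many epithelial tumours.

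Promoter stretches are shown for the 3 FOS family genes of the RefSeq promoter table and for JUN, because the cAMP response element (CRE), the binding site of CREB and ATF factors, is a known control point of FOS. The table (build GRCh38.p14) held 6 of the 7 genes, without FOSL1, each with 250 bases before and 50 bases after the start. Capitals mark TGACGT, the first 6 letters of the CRE, TATAAA, the TATA box, and in JUN the CRE-related TGACATCA. The stretches are from FOS at chr14:75278748-75278803 on the plus strand, FOSB at chr19:45467916-45467971 on the plus strand, FOSL2 at chr2:28392778-28392807 on the plus strand and JUN at chr1:58784098-58784127 on the minus strand, all written 5′ to 3′ along the gene and beginning 80 bases before the RefSeq start.
FOS: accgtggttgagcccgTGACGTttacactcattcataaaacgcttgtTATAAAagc
FOSB: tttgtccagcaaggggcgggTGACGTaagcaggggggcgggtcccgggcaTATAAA
FOSL2: gtggagtctggggtTGACGTgagtgaatcc
JUN: gaaggccttggggTGACATCAtgggctatt

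Counted back from the RefSeq start, with -1 as the base just before it, TGACGT spanned -64 to -59 in FOS, -60 to -55 in FOSB and -66 to -61 in FOSL2. These 3 genes carried the letters on their own strand and within a few bases of the same distance from the start. In JUN the variant TGACATCA spanned -67 to -60. TATAAA, searched on the gene's strand, spanned -33 to -28 in FOS, -30 to -25 in FOSB and -31 to -26 in JUNB, the other gene of the families with these letters. JUND held the whole CRE, TGACGTCA, at -200 to -193, which includes TGACGT on both strands, and a further TGACGT on the opposite strand at -87 to -82. The AP-1 site TGACTCA occurred once, just after the start of FOSL2, and the ETS core CCGGAA once, at -205 to -200 of FOSB. The CArG box, the letters bound by SRF, was not in any of the 6 windows. Bases more than 250 before the start were not searched, so a CArG box further upstream would have been missed. All motifs but TATAAA were searched on both strands. Among 35116 promoters of the same 300 bases, TGACGT was in 7.98%, TGACATCA in 2.61%, TATAAA in 7.33%, TGACGTCA in 1.85%, TGACTCA in 4.95%, CCGGAA in 17.25% and the CArG box in 1.29%. TGACGT and TGACATCA were added to the search after the sequences had been seen. GENCODE places the starts of FOS, FOSL2 and JUN upstream of the RefSeq starts in at least some transcripts, so the distances hold for the RefSeq starts.

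Libraries held 17122252 to 18847340 counts with siC1QBP and 18313264 to 20416243 with siNC. The siRNA target C1QBP stood at 58.9 ± 1.19 CPM, counts scaled to library size, with siC1QBP and 180 ± 4.94 CPM with siNC (SD, n = 3 each), a log2 fold change of -1.61 (SE 0.05; edgeR adjusted p = 2.34e-16). Of 15530 genes tested, 2282 (14.7%) passed an adjusted p of 0.05, 1066 (6.86%) higher and 1216 (7.83%) lower in siC1QBP. Leaving out siNC replicate 2 gave 1267 calls and leaving out siNC replicate 3 gave 1258; scaling by library size alone gave 1328 higher and 911 lower. siC1QBP replicate 1 stood apart from the other siC1QBP libraries, with chi-square statistics of 6.66 and 6.77 per degree of freedom, against 2.09 for the pair without it. To a smaller extent siNC replicate 1 did so among siNC libraries, with 3.67 and 3.4, against 2.13 for the pair without it. Genes with at least 1 count numbered 25001 to 25506 in siC1QBP and 23395 to 23841 in siNC libraries, and the share of counts in mitochondrially encoded genes was 4.2% to 4.8% with siC1QBP and 3.66% to 3.88% with siNC (two-sided exact permutation p = 0.1 for each, the smallest that 3 against 3 allows). All 10 biliary and simple epithelial markers averaged at least 1 CPM, with sums of 7800 to 8180 CPM with siC1QBP and 8610 to 9090 CPM with siNC. Of the fibroblast markers, 3 of 7 averaged at least 1 CPM and the sum was 48.3 to 51.1 CPM with siC1QBP and 36.6 to 38.6 CPM with siNC, with COL1A2, COL3A1, DCN and THY1 under 1 CPM in every library. Of the endothelial markers 2 of 4 averaged at least 1 CPM, with sums of 3.05 to 3.95 CPM with siC1QBP and 2.52 to 3.7 CPM with siNC. Of the hepatocyte markers 1 of 4 did so, with TTR at 0. The part of these differences in the results on AP-1 genes was not tested.

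All 7 AP-1 genes passed the filter on low counts. By the same threshold 3 of the 7 were called, beside 14.7% of all tested genes: 2 were called higher in siC1QBP (FOS and FOSB, beside 6.86% of tested genes), 1 was called lower (FOSL2, beside 7.83%) and 4 were not called. The median log2 fold change of the 7 was -0.08, beside 0.00255 over all tested genes. In 4 of the 7, FOS, FOSB, FOSL1 and FOSL2, the siC1QBP and siNC libraries did not overlap, as was so in 32.6% of all tested genes. The 3 JUN genes overlapped between the groups. Since the family was chosen on this contrast, nothing is read from these counts. RNA from bulk cells cannot tell fewer cells expressing a gene from less RNA per cell.

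**Figure D1:**
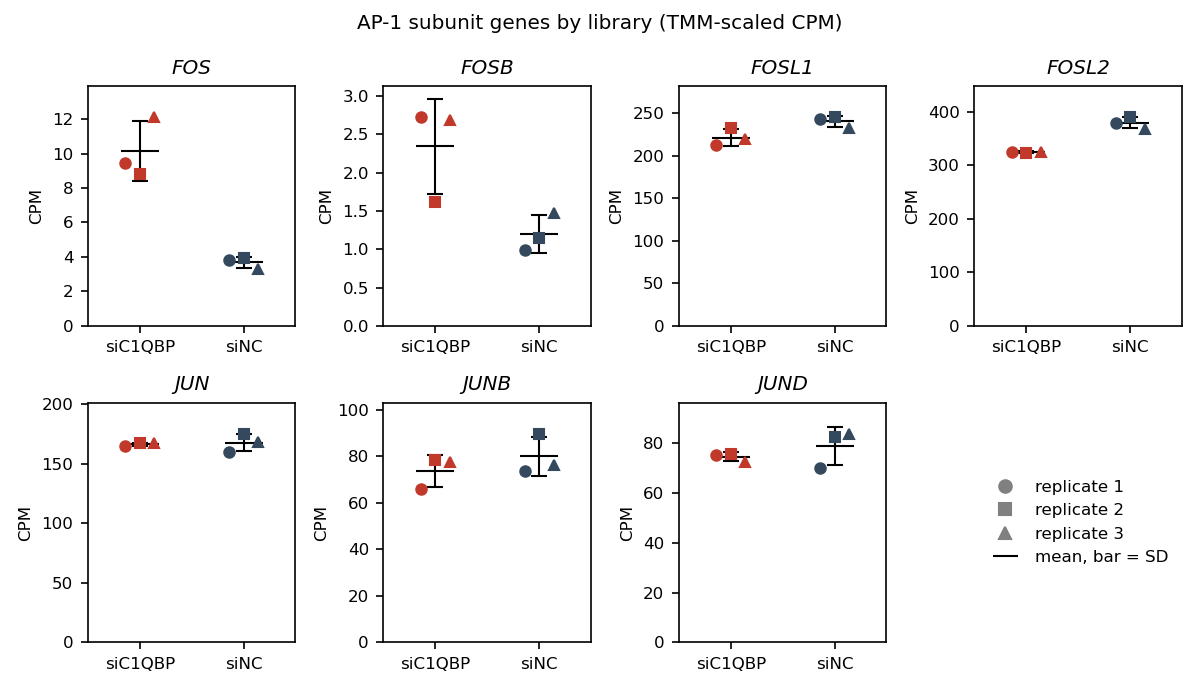
Level of each AP-1 gene in CPM (linear axis from 0) in the 3 siC1QBP and 3 siNC libraries; symbols stand for replicate numbers, the long line for the mean and the bar for the SD. FOS sits at 8.83 to 12.1 CPM with siC1QBP and 3.32 to 3.92 CPM with siNC, while JUN, JUNB and JUND overlap.

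FOS (ENSG00000170345; hg38 chromosome 14, 75278774 to 75282230, plus strand, 4 exons), the classic serum-inducible partner of JUN, had 9.45, 8.83 and 12.1 CPM in siC1QBP replicates 1, 2 and 3 and 3.84, 3.92 and 3.32 CPM in siNC replicates 1, 2 and 3. These values came from 153 to 231 counts per siC1QBP library and 61 to 79 counts per siNC library. The lowest siC1QBP library lay above the highest siNC library, and siC1QBP replicate 3 was the highest of all 6. The means were 10.1 ± 1.75 CPM with siC1QBP and 3.69 ± 0.325 CPM with siNC (SD, n = 3 each), a 2.74-fold difference with a 95% interval of 2.19 to 3.44. On the log2 scale this was 1.46 (SE 0.16; 95% interval 1.13 to 1.78), the rank of 35 from the top among 15530 tested genes. Its log2 fold change ran from 1.30 to 1.54 when single libraries were left out. The relative spread within a group was 17.3% of the mean in siC1QBP and 8.79% in siNC libraries.

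FOSB (ENSG00000125740; chromosome 19, 45467995 to 45475179, plus strand, 4 exons), a relative of FOS induced by similar stimuli, was the rarest member. It had 2.72, 1.62 and 2.68 CPM in siC1QBP replicates 1, 2 and 3 and 0.988, 1.14 and 1.47 CPM in siNC replicates 1, 2 and 3. The gap between groups was small, because siC1QBP replicate 2, with 28 counts, lay just above siNC replicate 3, with 27 counts. The means were 2.34 ± 0.627 CPM with siC1QBP and 1.2 ± 0.247 CPM with siNC (SD, n = 3 each). The log2 fold change was 0.96 (SE 0.29; 95% interval 0.36 to 1.57), a 1.95-fold difference with an interval of 1.28 to 2.97. FOSB was not called without siC1QBP replicate 1, siC1QBP replicate 3, siNC replicate 1 or siNC replicate 2, and DESeq2 gave no adjusted p for it. Its log2 fold change stayed between 0.84 and 1.17 when single libraries were left out. FOSB lies opposite ERCC1, a DNA repair gene, but shares no exon bases with it; ERCC1 had a log2 fold change of -0.09 (edgeR adjusted p = 0.523).

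FOSL1 (ENSG00000175592; chromosome 11, 65892049 to 65900573, minus strand, 4 exons) encodes FRA-1, a FOS protein that lacks the strong activation domain of FOS and accumulates under sustained ERK signalling. It had 212, 232 and 219 CPM in siC1QBP replicates 1, 2 and 3 and 243, 245 and 233 CPM in siNC replicates 1, 2 and 3. The highest siC1QBP library and the lowest siNC library came within about 1 CPM of each other without crossing. The means were 221 ± 10.3 CPM with siC1QBP and 240 ± 6.28 CPM with siNC (SD, n = 3 each), with a log2 fold change of -0.12 (SE 0.04; 95% interval -0.21 to -0.03). FOSL1 was not called, and was called lower in 3 of the 16 other settings, namely with all genes of at least 1 count, without siC1QBP replicate 2 and with the replicate number as a block.

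FOSL2 (ENSG00000075426; chromosome 2, 28392448 to 28417312, plus strand, 4 exons) encodes FRA-2, a close relative of FRA-1. It had 326, 323 and 325 CPM in siC1QBP replicates 1, 2 and 3 and 380, 390 and 369 CPM in siNC replicates 1, 2 and 3. The siC1QBP libraries were nearly equal and all lay below every siNC library. The means were 324 ± 1.6 CPM with siC1QBP and 380 ± 10.2 CPM with siNC (SD, n = 3 each), and the log2 fold change was -0.23 (SE 0.04; 95% interval -0.31 to -0.14). Its log2 fold change was -0.25 to -0.21 when single libraries were left out and -0.29 with the trend of gene length and GC content removed. FOSL2 overlaps FLJ31356 on the opposite strand and AC104695.3 on the same strand, and shares no exon bases with either.

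Levels of the JUN genes differed between groups by less than their spread. JUN (ENSG00000177606; chromosome 1, 58780788 to 58784327, minus strand, 1 exon), the main dimer partner of FOS proteins, had 165, 167 and 167 CPM in siC1QBP replicates 1, 2 and 3 and 160, 175 and 168 CPM in siNC replicates 1, 2 and 3. The siC1QBP libraries lay inside the range of the siNC libraries. The log2 fold change of JUN was -0.01 (SE 0.04; 95% interval -0.10 to 0.08), the smallest of the 7 in size.

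JUNB (ENSG00000171223; chromosome 19, 12791496 to 12793315, plus strand, 1 exon), a weaker activator that can oppose JUN, had 65.9, 78.3 and 77.4 CPM in siC1QBP replicates 1, 2 and 3 and 73.9, 89.7 and 76.4 CPM in siNC replicates 1, 2 and 3. The lowest value was siC1QBP replicate 1 and the highest siNC replicate 2, and the other 4 libraries were mixed. Its log2 fold change was -0.12 (SE 0.08; 95% interval -0.29 to 0.05), with -0.04 when siC1QBP replicate 1 was left out, -0.03 when siNC replicate 2 was and -0.18 when siNC replicate 1 was. JUNB shares 259 of its 1820 exon bases (14.2%) with HOOK2 on the opposite strand, and reads there may have been assigned to either gene, since the strand setting of the counting is not given in the sources used here. HOOK2, a linker of cargo to microtubules, had a log2 fold change of 0.15 (SE 0.07; edgeR adjusted p = 0.175).

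JUND (ENSG00000130522; chromosome 19, 18279760 to 18281622, minus strand, 1 exon), the JUN protein that is present in resting cells, had 75.4, 75.9 and 72.5 CPM in siC1QBP replicates 1, 2 and 3 and 70.0, 82.6 and 83.9 CPM in siNC replicates 1, 2 and 3. The siNC libraries spanned the siC1QBP libraries on both sides. Its log2 fold change was -0.08 (SE 0.06; 95% interval -0.21 to 0.05), and 0.06 with the trend of gene length and GC content removed. It was -0.16 with siNC replicate 1 left out and -0.04 with siNC replicate 3 left out. JUN, JUNB and JUND were not called under any of the 17 settings, the reported one included; the widest of their intervals reached -0.29 on the log2 scale, for JUNB.

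**Figure D2:**
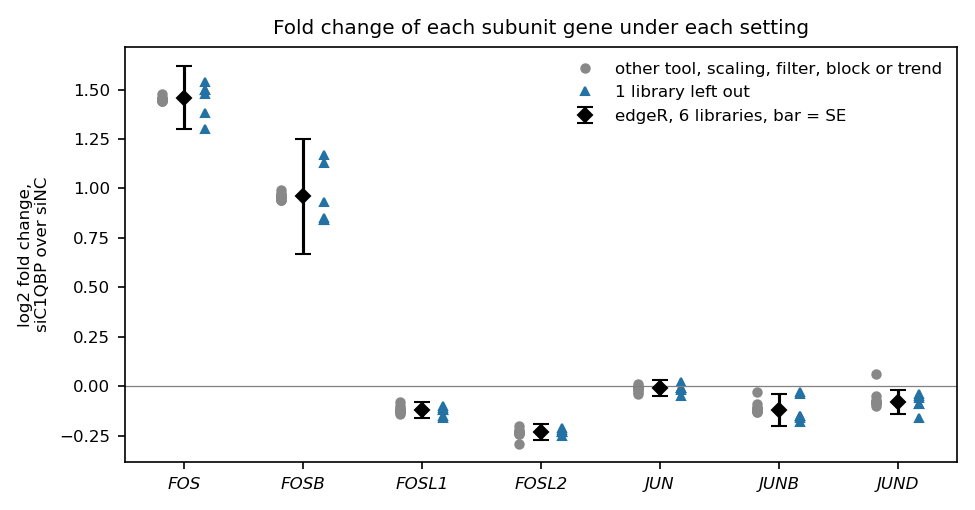
Log2 fold change of each AP-1 gene, siC1QBP over siNC, with all 6 libraries (diamonds, bar = SE), under another tool, scaling, filter, block or trend removal (circles), and with 1 library left out (triangles). FOS stays between 1.30 and 1.54 and FOSB between 0.84 and 1.17 when single libraries are left out, and JUND is at 0.06 with the length and GC trend removed.

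To compare genes with each other, CPM were divided by the exon length of the gene in kilobases (CPM per kb). FOSL1 was the most abundant member, at 117 ± 5.46 CPM per kb with siC1QBP and 127 ± 3.33 CPM per kb with siNC, above 98.3% of tested genes. FOSL2 followed in siNC libraries and JUN in siC1QBP libraries. FOSL2 stood at 45.3 ± 0.224 CPM per kb with siC1QBP and 53.1 ± 1.42 CPM per kb with siNC, and JUN at 47.0 ± 0.308 CPM per kb with siC1QBP and 47.4 ± 2.0 CPM per kb with siNC. Neither pair of ranges overlapped between FOSL2 and JUN, but the order in siC1QBP depended on the length used: with the longest transcript of each gene, FOSL2 was at 48.4 CPM per kb and JUN at 47.0 CPM per kb. JUNB was at 40.6 ± 3.79 CPM per kb with siC1QBP and 44.0 ± 4.66 CPM per kb with siNC, and JUND at 40.0 ± 0.985 CPM per kb with siC1QBP and 42.3 ± 4.1 CPM per kb with siNC. JUNB and JUND overlapped in both groups, and JUN overlapped JUNB among the siNC libraries. FOS, at 3.13 ± 0.542 CPM per kb with siC1QBP and 1.14 ± 0.1 CPM per kb with siNC, and FOSB, at 0.421 ± 0.113 CPM per kb with siC1QBP and 0.216 ± 0.0444 CPM per kb with siNC, came last in both groups with no overlap between them (all SD, n = 3). FOS lay above 34.5% and FOSB above 7.98% of tested genes in level per length, against 93.1% or more for the other 5 members.

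**Figure D3:**
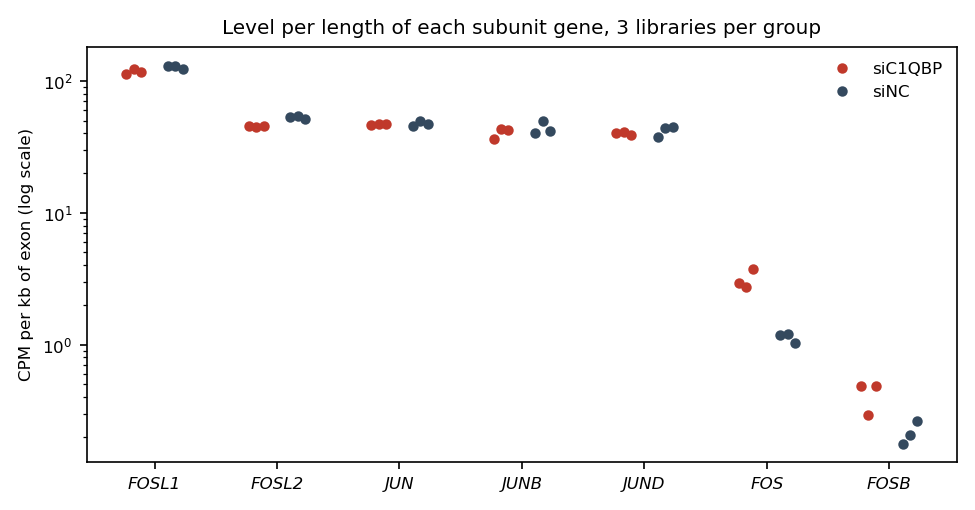
Level of each AP-1 gene per kilobase of exon (CPM per kb, log axis) in each siC1QBP and siNC library. FOSL1 is highest at 117 and 127 CPM per kb on average in siC1QBP and siNC libraries, and FOS and FOSB lie far below the other 5 genes in both.

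Summed over the FOS family, the level was 161, 171 and 165 CPM per kb in siC1QBP replicates 1, 2 and 3 and 183, 186 and 176 CPM per kb in siNC replicates 1, 2 and 3. Every siC1QBP library had a smaller FOS family sum than every siNC library, although FOS and FOSB were higher there. Among single tested genes, 32.6% also did not overlap between groups, and FOSL1, the largest part of the sum, was not called. FOSL1 and FOSL2 together made up 162 ± 5.24 CPM per kb with siC1QBP and 180 ± 4.71 CPM per kb with siNC, and FOS and FOSB together 3.55 ± 0.618 CPM per kb with siC1QBP and 1.36 ± 0.0629 CPM per kb with siNC. FOSL1 and FOSL2 therefore exceeded FOS and FOSB 46.7 ± 8.79-fold with siC1QBP and 133 ± 2.77-fold with siNC. FOS itself took 1.89 ± 0.342% of the family sum in siC1QBP and 0.627 ± 0.0396% in siNC libraries, and FOSB 0.255 ± 0.0741% with siC1QBP and 0.119 ± 0.0275% with siNC. FOSL1 took 70.5 ± 1.2% with siC1QBP and 70.1 ± 0.164% with siNC, and FOSL2 27.3 ± 0.946% with siC1QBP and 29.2 ± 0.159% with siNC.

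The JUN family summed to 123, 131 and 129 CPM per kb in siC1QBP replicates 1, 2 and 3 and 124, 143 and 134 CPM per kb in siNC replicates 1, 2 and 3, with overlap between the groups. JUN took 36.8 ± 0.901% of that sum in siC1QBP and 35.5 ± 1.1% in siNC libraries, JUNB 31.8 ± 2.08% with siC1QBP and 32.9 ± 1.63% with siNC, and JUND 31.4 ± 1.28% with siC1QBP and 31.6 ± 1.62% with siNC. The 3 JUN genes thus contributed nearly equal shares, unlike the 4 FOS genes. The FOS family sum exceeded the JUN family sum 1.3 ± 0.0108-fold with siC1QBP and 1.36 ± 0.102-fold with siNC, a difference smaller than the spread between the siNC libraries (all SD, n = 3).

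**Figure D4:**
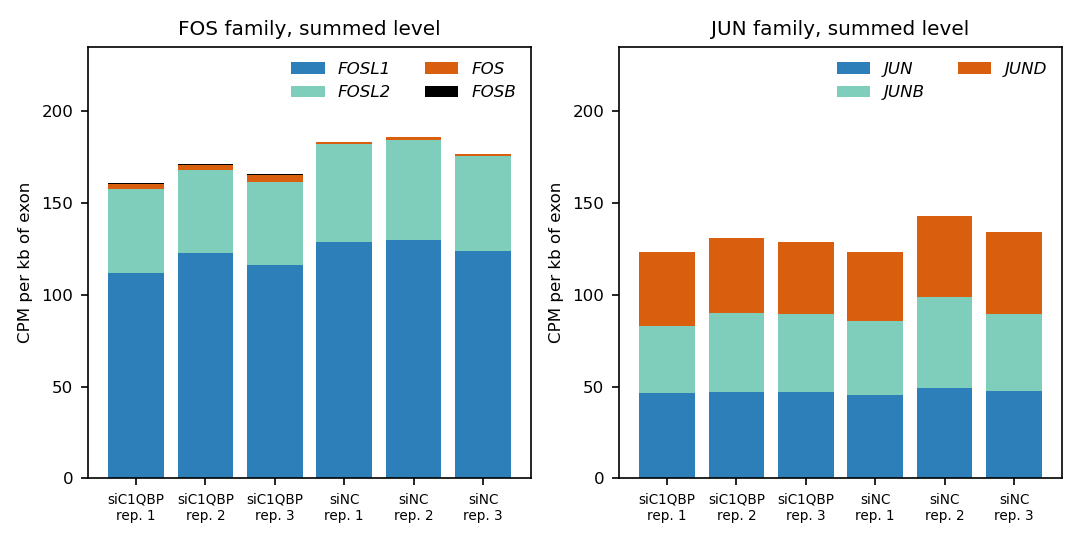
Summed level of the FOS family (left) and the JUN family (right) in each library, in CPM per kb of exon, stacked by gene. The FOS family sums are 161 to 171 CPM per kb with siC1QBP and 176 to 186 CPM per kb with siNC, with FOS and FOSB as a thin layer on top, and the JUN family sums overlap between groups.

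The encoded proteins, translated from GENCODE 29 coding sequences, were 380 (FOS), 338 (FOSB), 271 (FOSL1), 326 (FOSL2), 331 (JUN), 347 (JUNB) and 347 (JUND) residues long. Identity was counted over aligned residue pairs, with gapped positions left out. For alignments of the whole proteins it was 49.6% to 56.6% among the 4 FOS proteins and 54.4% to 63.6% among the 3 JUN proteins. Between the families it was 16.9% to 34.4%, with as few as 183 aligned residues for FOSL1 and JUNB. Over a stretch of 59 residues around the leucine repeats, identity was 78.0% to 83.1% among FOS proteins and 81.4% to 89.8% among JUN proteins, but 28.8% to 37.3% between the families. FOSL1 and FOSL2, which shared at least 78.0% of that stretch with FOS, were set apart from FOS and FOSB by level. Their log2 fold changes had the opposite sign, but FOSL1 was not called and the family was chosen on this contrast.

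The 3′ UTRs were scanned for ATTTA, the core of AU-rich elements, which mark short-lived messages such as FOS for decay. FOS had 5 in 806 bases, or 6.2 per kb, a rate above that of 94.7% of 12472 tested protein-coding genes, whose median was 1.63 per kb. JUNB followed with 4.0 per kb and JUN with 2.33 per kb. FOSL2 had 1.85, FOSL1 1.5, JUND 1.47 and FOSB 1.39 per kb, close to the median. The longer form TTATTTATT was found in FOS and FOSL2, and in 8.7% of the genes scanned. By rate FOS was the highest and FOSB the lowest of the 7 genes. By count FOSL2 was the highest, with 9 in 4864 bases, and FOSB and JUN had 3 each. A part of ATTTA in the differences between groups was not tested.

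Among 12196 protein-coding genes outside the families that averaged 1 CPM or more, the pattern over the 6 libraries most like that of FOS was that of EGR1, a zinc finger factor of the immediate early response. Likeness was the root mean square difference of log2 CPM centred on each gene's mean, which was 0.20 for EGR1, 0.21 for TNFSF15, a cytokine, 0.21 for PDE3A, a phosphodiesterase, 0.22 for NKD1, a Wnt inhibitor, and 0.25 for MUC6, a gastric-type mucin. EGR1 had 60.4, 61.0 and 58.9 CPM in siC1QBP replicates 1, 2 and 3 and 26.2, 27.0 and 26.0 CPM in siNC replicates 1, 2 and 3. Its log2 fold change was 1.18 (SE 0.06). The highest FOS library, siC1QBP replicate 3, was the lowest of the siC1QBP libraries for EGR1. The log2 fold change was 1.33 (SE 0.08) for TNFSF15, 1.20 (SE 0.30) for PDE3A, 1.16 (SE 0.13) for NKD1 and 1.22 (SE 0.16) for MUC6. These 5 genes were selected for their likeness to FOS, so a difference in the same direction was fixed by the choice and is given with no test.

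Of the immediate early genes outside the families, 22 of 25 were tested, 9 of them rose and 2 fell. Of the 22, 11 were therefore called, beside 14.7% of all tested genes, and the median log2 fold change was 0.16, beside 0.00255 over all tested genes. Besides EGR1, PTGS2, the inducible cyclooxygenase, stood at 115 ± 4.72 CPM with siC1QBP and 62.1 ± 1.95 CPM with siNC (log2 fold change 0.89, SE 0.05; edgeR adjusted p = 1.17e-10), and ATF3, a stress-induced bZIP factor, at 14.2 ± 1.31 CPM with siC1QBP and 8.58 ± 0.913 CPM with siNC (0.73, SE 0.12; 0.000233). NR4A1, an orphan nuclear receptor, had a log2 fold change of 0.87 (SE 0.17; edgeR adjusted p = 0.00109). MYC, the c-Myc gene, was called lower (log2 fold change -0.23, SE 0.06; edgeR adjusted p = 0.00603), at 73.2 ± 5.11 CPM with siC1QBP and 86.1 ± 0.584 CPM with siNC. The FOS and FOSB values thus lay beside rises in 9 of 22 listed genes, while JUN and JUNB, also immediate early genes, were not called. Leaving out siNC replicate 3 gave 1 lower, since SRF, the other gene that fell, lost its call. Without siC1QBP replicate 3 or any 1 siNC replicate, 7 genes of the list were called higher. This list, like those below, was drawn up with earlier results of these data known.

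Among 15 tested bZIP proteins that can pair with FOS or JUN proteins, 2 rose and none fell in edgeR, DESeq2 or limma-voom, with a median of 0.05. The 13.3% of the list that passed was near the 14.7% of all tested genes. The genes that rose were ATF3 and NFE2L1, a regulator of proteasome genes, at 348 ± 6.45 CPM with siC1QBP and 303 ± 2.92 CPM with siNC (log2 fold change 0.20, SE 0.04; edgeR adjusted p = 0.00158). In that list 5 genes had an unadjusted p under 0.05, and 1 was called lower when siC1QBP replicate 1 was left out. The share of all tested genes under that unadjusted threshold is not given here. Nothing is therefore read from this count or from the like counts for the lists below.

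Of 11 tested factors that bind or coactivate the FOS promoter, 2 rose and 1 fell, which is 27.3% beside 14.7% of all tested genes, with a median of 0.03. STAT3, which acts on the FOS promoter after cytokine signals, stood at 243 ± 5.21 CPM with siC1QBP and 195 ± 12.1 CPM with siNC (log2 fold change 0.32, SE 0.05; edgeR adjusted p = 7.06e-05). SRF, the factor that binds the CArG box, fell by 0.22 (SE 0.06; edgeR adjusted p = 0.015) and was not called when siNC replicate 3 was left out (edgeR adjusted p = 0.0814); with siC1QBP replicate 1 left out, 2 genes of the list were called lower. ELK4, a partner of SRF, rose by 0.20 (edgeR adjusted p = 0.00824) and lost its call without siNC replicate 2 (0.0651) or 3 (0.0547). CREB1 and ATF1, which bind the CRE letters shown for FOS, were not called (log2 fold changes -0.15 and 0.15, edgeR adjusted p = 0.105 and 0.206).

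Of 17 tested genes of the RAS to ERK cascade, which drives FOS transcription, 3 fell and none rose in edgeR, DESeq2 or limma-voom. The 17.6% that passed was near the 14.7% of all tested genes, and the median was -0.06. At an unadjusted p under 0.05 there were 9 genes, a count given without the share of all tested genes. RPS6KA4, a kinase of CREB and histone H3, fell by 0.22 (SE 0.04; edgeR adjusted p = 0.0012) and MAP2K1, which phosphorylates ERK, fell by 0.20 (SE 0.05; edgeR adjusted p = 0.00606). HRAS fell by 0.28 (SE 0.07; edgeR adjusted p = 0.0119), a call lost without siNC replicate 2 (0.0927) or 3 (0.0685). Leaving out siC1QBP replicate 1 gave 6 lower, and leaving out siC1QBP replicate 2, siC1QBP replicate 3 or siNC replicate 1 gave 1 higher.

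Of 18 tested genes of the JNK and p38 cascades, which phosphorylate JUN and ATF factors, none passed in edgeR, DESeq2 or limma-voom. In edgeR 14.7% of all tested genes passed. The median of the list was 0.05, and 5 of its genes had an unadjusted p under 0.05 in edgeR. The 2 most abundant were MAP3K11, with a log2 fold change of -0.12 (edgeR adjusted p = 0.124), and MAP2K3, with 0.02 (0.781). MAP3K11 was called lower once replicate 1 of either group was left out (edgeR adjusted p = 0.0433 for siC1QBP and 0.0479 for siNC). With siC1QBP replicate 1 left out, 1 gene of the list was called higher and 2 lower, and with siNC replicate 1 left out, 1 higher and 1 lower.

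Of 9 tested MAP kinase phosphatases, which switch ERK, JNK and p38 off, 2 rose and 2 fell, which is 44.4% beside 14.7% of all tested genes, with a median of -0.01. DUSP6, the ERK phosphatase whose transcription follows ERK activity, stood at 154 ± 3.42 CPM with siC1QBP and 195 ± 7.25 CPM with siNC (log2 fold change -0.34, SE 0.04; edgeR adjusted p = 1.78e-05). DUSP7 fell by 0.23 (SE 0.06; edgeR adjusted p = 0.0177), but missed the threshold when siC1QBP replicate 3 (0.0514), siNC replicate 1 (0.062) or siNC replicate 3 (0.0502) was left out. DUSP16 rose by 0.25 (SE 0.06; edgeR adjusted p = 0.013), but missed it when siNC replicate 2 was left out (0.0865), and its log2 fold change was 0.15 when siC1QBP replicate 1 was left out. DUSP1, itself an immediate early gene, had a log2 fold change of 0.32 (edgeR adjusted p = 0.0462) but was not called without siC1QBP replicate 2 (0.11) or 3 (0.169) or without any 1 siNC replicate (0.0838 to 0.153). Leaving out siNC replicate 2 gave no phosphatase higher, and edgeR at an unadjusted p under 0.05 had 4 genes of the list.

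Of 15 tested regulators of AP-1 protein and message turnover, 4 fell in edgeR and none rose in edgeR, DESeq2 or limma-voom. The share that passed was 26.7%, beside 14.7% of all tested genes, the median was -0.10, and 8 genes had an unadjusted p under 0.05. KHSRP and ZFP36L2, which bind AU-rich elements such as those counted in FOS, fell by 0.20 (SE 0.04; edgeR adjusted p = 0.00227) and 0.26 (SE 0.06; 0.0037). HNRNPD, another AU-rich element binding protein, fell by 0.18 (edgeR adjusted p = 0.0237), but its call was lost without siNC replicate 1 (0.0865), 2 (0.0779) or 3 (0.0558), and its log2 fold change was -0.11 without siC1QBP replicate 1. COPS5, a JUN coactivator also called lower, lost its call without siC1QBP replicate 1 or any 1 siNC replicate (edgeR adjusted p = 0.0538 to 0.116). ZFP36 and ZFP36L1, relatives of ZFP36L2, and ELAVL1 were in the same list and were not called. Their log2 fold changes were 0.13, 0.04 and -0.12 (edgeR adjusted p = 0.479, 0.512 and 0.158). Leaving out siNC replicate 2 or 3 gave 2 lower, and leaving out siC1QBP replicate 2 gave 1 higher.

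Of 34 genes known as AP-1 targets, 30 were tested, 6 rose and 2 fell, which is 26.7% beside 14.7% of all tested genes, with a median of 0.09. CCL2, a chemokine, stood at 60.5 ± 1.24 CPM with siC1QBP and 44.8 ± 1.17 CPM with siNC (log2 fold change 0.43, SE 0.06; edgeR adjusted p = 2.76e-05). The collagenase MMP1 was at 317 ± 6.68 CPM with siC1QBP and 264 ± 8.61 CPM with siNC (0.27, SE 0.04; edgeR adjusted p = 0.000145). CCND1, cyclin D1, went the other way, at 812 ± 53.7 CPM with siC1QBP and 994 ± 14.9 CPM with siNC (-0.29, SE 0.04; edgeR adjusted p = 0.000102). Leaving out siC1QBP replicate 1 gave 4 lower, and leaving out siC1QBP replicate 2, siNC replicate 2 or siNC replicate 3 gave 1 lower. PTGS2 is in this list and among the immediate early genes, so the lists are not separate, and the direction of AP-1 on each target was not measured here.

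**Figure D5:**
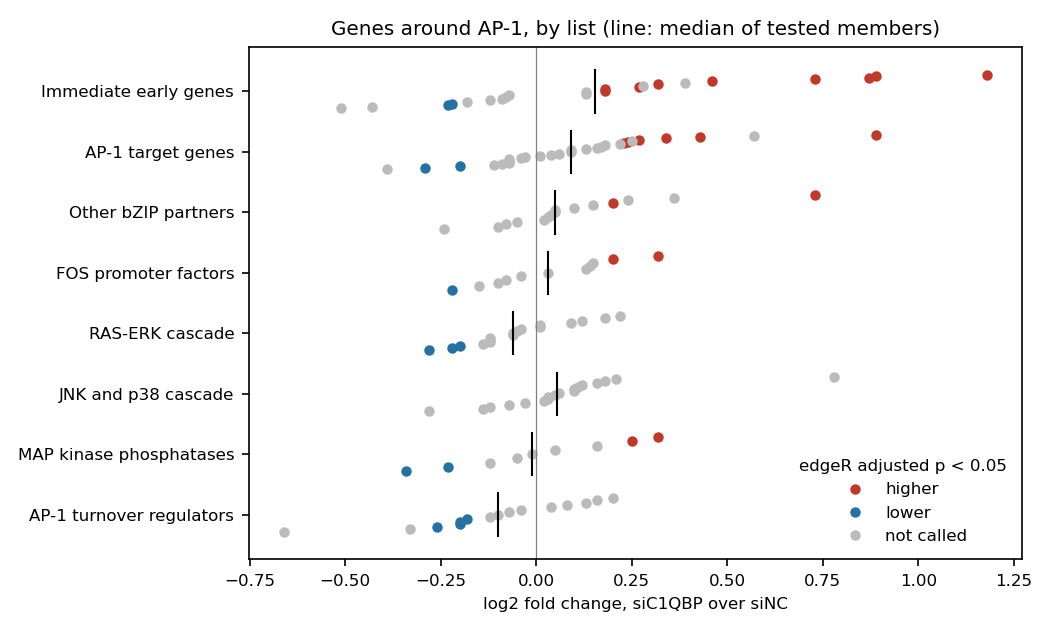
Log2 fold change, siC1QBP over siNC, of every tested gene in 8 lists around AP-1, without the 7 AP-1 genes; coloured points passed an edgeR adjusted p of 0.05 and the black line is the median of the list. The immediate early list has 9 genes higher and 2 lower with a median of 0.16, and the JNK and p38 list has no called gene.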

How the data were processed

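The deposited values are raw counts for 58735 genes in each of 6 libraries, all whole and not normalized. Per the labels' protocols, RNA was purified on RNeasy columns and libraries were made with a strand-marking kit. The build is hg38 per the submitters' processing notes; aligner, counter and strand use were not given in the sources used here. Identifiers, coordinates and exon lengths of all 58735 genes matched GENCODE release 29.

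Counts were tested with edgeR 4.0.16 in R 4.3.3 (quasi-likelihood test with robust fits, TMM scaling, filterByExpr, treatment as the only term), with Benjamini-Hochberg adjustment over 15530 genes. An adjusted p under 0.05 is a call. CPM use TMM-scaled library sizes, and intervals use the t distribution of the fit. Total counts of 17122252 to 20416243 per library make counts of the rarest member, FOSB, imprecise. Nothing in the labels says that replicates were separate cultures; p-values therefore measure only the spread among these samples, which can be technical. No pair of libraries agreed within sampling noise by a chi-square test (2.09 or more per degree of freedom). The procedure was tested on simulated data with changes placed only in genes more abundant than FOSB, so that test does not cover FOSB.

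The members and the gene lists were chosen with earlier results of these data known. Named from each list were up to 3 called genes with the smallest p and 1 called the other way, or the 2 most abundant where none was called; C1QBP and the 5 genes most like FOS in pattern were added. CREB1, ATF1, NR4A1, MMP1, DUSP1, COPS5, ZFP36, ZFP36L1, ELAVL1 and the genes overlapping members were named outside that rule, after their values were seen. Alternatives were DESeq2 1.42.0, limma-voom (limma 3.58.1), other scalings and filters, protein-coding genes only, mitochondrial genes left out, removal of length and GC trends (mgcv 1.9.3), each library left out, the replicate block, and the longest transcript as length. Proteins were aligned with Biopython 1.88. Exact tests used scipy 1.17.1 in Python 3.11.15. One marker list is not reported here.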

Additional observations from a re-analysis of the deposited data

How the results depend on the processing

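The fold changes of FOS, FOSB, FOSL1 and FOSL2 kept their sign in all 16 alternatives; as the genes were chosen on this contrast, nothing is read from this. DESeq2 called 699 genes higher. With length and GC trends removed, FOSL2 was at -0.29 and JUND at 0.06 on the log2 scale, and calls became 3 lower among FOS promoter factors, 1 higher and 5 lower in the ERK cascade, 1 lower in the JNK and p38 cascades, 4 lower among immediate early genes and 5 lower among AP-1 targets. The ERK cascade also had 1 gene higher with library size only, with either other filter and with protein-coding genes only. MAP kinase phosphatases had 1 higher with DESeq2, limma-voom or at least 1 count; AP-1 turnover had 2 lower with library size only; AP-1 targets had 1 lower with library size only, at least 1 CPM, no mitochondrial genes or protein-coding genes only. With the longest transcript as length, siC1QBP minus siNC was 1.68 percentage points for the FOS share, 3.29 CPM per kb for FOS and FOSB, and -64.2 for the ratio of FOSL1 and FOSL2 to them; with exon length these were 1.26, 2.19 and -86.3. The deviations of same-numbered samples had correlations of 0.043, 0.033 and -0.009, and those of other pairs across the groups -0.048 to 0.021. Whether same-numbered samples share more than a number cannot be told from these values. With the replicate block 3105 genes were called. The ERK cascade then had 2 higher and 6 lower, and the JNK and p38 cascades 1 lower. The cause was not tested for any of these. Leaving out single libraries gave 1258 to 2595 calls, 614 to 1126 higher and 639 to 1469 lower. In the lists it gave, for bZIP partners 2 to 3 higher and 0 to 1 lower, for FOS promoter factors 1 to 2 higher and 0 to 2 lower, for the ERK cascade 0 to 1 higher and 2 to 6 lower, for JNK and p38 0 to 1 higher and 0 to 2 lower, for phosphatases 0 to 2 higher and 1 to 2 lower, for turnover 0 to 1 higher and 2 to 5 lower, for immediate early genes 7 to 10 higher and 1 to 3 lower, and for AP-1 targets 6 to 8 higher and 1 to 4 lower. Depth limits FOSB most, at 18 to 51 counts per library.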
